A study of Bos taurus with 6 samples.

Results

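The lysosome is the acidic compartment in which a cell takes apart proteins, glycans, lipids and nucleic acids that reach it by endocytosis or autophagy. Soluble acid hydrolases do the cutting, heavily glycosylated membrane proteins line the compartment and move products out, and the V-ATPase, a rotary proton pump with a cytosolic ATP-splitting sector (V1) and a membrane sector (V0), keeps it acid. In the follicle, granulosa cells use lysosomes to free cholesterol from lipoproteins for steroid synthesis. Many lysosomal genes in mammals share control by TFEB and its relatives, which the kinase mTORC1 holds in the cytosol when growth factors and nutrients are plentiful.

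Of 45 listed lysosomal genes, 44 carried a probe under their own symbol on a bovine array that read 15229 genes: 19 of 20 hydrolases, 10 of 10 membrane and luminal helper proteins, and 15 of 15 V-ATPase and accessory subunits. GLA was not under its symbol in the array annotation and was dropped. Each gene was read by its probe with the highest mean intensity over the arrays, and all 44 symbols are current in RefSeq. The genes were chosen by function, and the list was selected on the FGF18 over control ratios of these arrays as well, since those were known when it was drawn up. Its counts and medians are therefore a description, and no p-value is given for the list.

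Bovine granulosa cells treated with FGF18 at 10 ng/ml for 2 h were compared with untreated control cells. Both came from follicles of 2 to 6 mm of Holstein crossbred cattle from an abattoir, with no genetic change named in the labels, and both were cultured for 5 days without serum in medium with insulin and FSH (both 10 ng/ml). The label of the control carries the tag T0 and does not say whether control cells were taken at the start of exposure or after 2 h, so FGF18 and time in culture cannot be told apart if it was the start. FGF18 and control RNA were hybridised together on 6 two-colour arrays, as 3 biological replicates with 1 array in each dye orientation.

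Each ratio is the log2 of FGF18 over control, given as mean ± SD (n = 3 replicates). Intensities are normalised spot intensities in arbitrary units, which can be compared between conditions for 1 probe but not between genes. A probe counted as above background on an array where its spot was more than 2 SD brighter than the average of 153 negative controls. By this bound 45.7% to 73.5% of probes were read in a channel, and precision is limited by there being 6 arrays. Of 10 granulosa markers, 9 passed this bound on 3 or more arrays of 1 condition, FOXL2 being the exception. Among markers of other cells, 10 of 12 macrophage and leukocyte, 8 of 8 theca and stroma, 4 of 5 endothelial and 3 of 4 oocyte markers passed. Of all genes, 12200 of 15229 passed in the same way, so these counts do not tell cell types apart. The spike-in spots of 1 array, replicate 2 with the control in Cy5, were dim, at 1100 in Cy5 and 483 in Cy3, against at least 9505 and 5122 on the other arrays.

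None of the lysosomal genes passed the test across all genes. In limma with Benjamini-Hochberg adjustment, no gene passed an adjusted threshold of 0.05 (0 of 44, and 0 of 15229, or 0%), and the adjusted p of the 44 lay between 0.986 and 0.997. At an unadjusted p under 0.05 there were 6 of the 44, CTSD, CTSA, GUSB, GPNMB, ATP6V0B and ATP6V0C, each with a ratio above 0, where 3.49% of all genes met that bound, 2.32% as higher and 1.18% as lower. The mean ratio was above 0 for 33 of the 44, against 46.7% of all genes and 47.6% of those above background. It was above 0 in all 3 replicates for 16 and below 0 in all 3 for 2, where 12% of all genes did so on each side, and, among genes above background, 12.5% and 11.2%, and among the 3808 brightest genes, 13.6% and 9.16%. On all 6 arrays 9 genes were above 0 and 1 was below, against 4.47% and 2.73% of all genes and 5.39% and 3.11% of those above background. The median ratio of the 44 was 0.11, 0.20 and 0.10 in replicates 1, 2 and 3, and that of all genes was 0.00, -0.02 and 0.00.

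**Figure D1:**
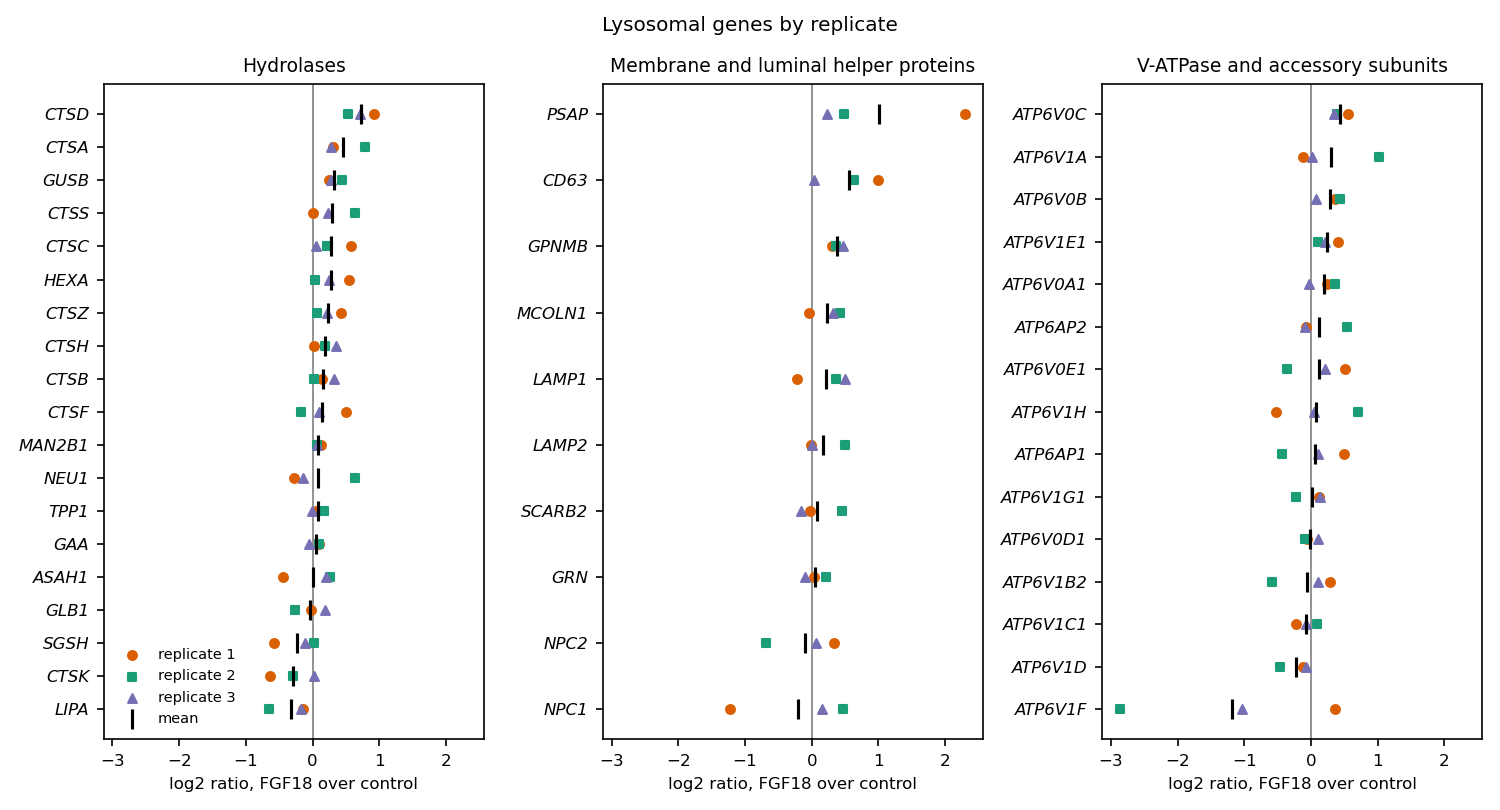
Log2 ratio of FGF18 over control (horizontal axis) for each of 44 lysosomal genes in replicates 1, 2 and 3 (points) with the mean (bar), in panels for hydrolases, membrane and luminal helper proteins, and V-ATPase. Most means lie within 0.5 of 0, CTSD keeps all points to the right, and single points of PSAP, NPC1 and ATP6V1F stand far from the others of the same gene.

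Among the proteases, 9 of 10 had a mean ratio above 0, where 46.7% of all genes did. Of the 10, 7 were above 0 in all 3 replicates, where 12% of all genes were. Group medians were 0.23, 0.18 and 0.23 in replicates 1, 2 and 3. CTSD, the main aspartic protease of lysosomes, had the highest ratio. Its intensity was 2850, 8833 and 6755 in FGF18-treated cells of replicates 1, 2 and 3, against 1503, 6123 and 4130 in control cells. FGF18-treated cells were the higher in each replicate, though the intensities of the groups overlap because replicate 1 was dimmer in both. The ratios were 0.92, 0.53 and 0.71, or 0.72 ± 0.20 (1.65-fold), and both dye orientations lay on the same side, with 0.84 where FGF18 was in Cy5 and 0.60 where control was.

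CTSA, a carboxypeptidase that also shields beta-galactosidase and sialidase from breakdown, came next among the proteases. Its intensity was 199, 284 and 200.1 in FGF18-treated cells, against 162, 166 and 165 in control cells, so every FGF18 value lay above every control value. The ratios were 0.30, 0.78 and 0.28, or 0.45 ± 0.28 (1.37-fold), with replicate 2 well above the others; without it the mean was 0.29.

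The other proteases above 0 in all 3 replicates had smaller means. CTSS, the cysteine protease best known for antigen presentation, had 0.29 ± 0.32, but replicate 1 was at 0.004 and its second probe gave 0.07 ± 0.07. CTSC, a dipeptidyl peptidase that activates granule proteases, had 0.28 ± 0.26, and CTSZ, a carboxypeptidase, had 0.24 ± 0.19. CTSH, an aminopeptidase, had 0.19 ± 0.16 and CTSB, an abundant cysteine protease, had 0.16 ± 0.15. For these 5 the replicates shared a sign but the SD was close to the mean or above it. The dye orientations of CTSB differed in sign, with 0.36 where FGF18 was in Cy5 and -0.04 where control was. Other genes with such a difference are named with ATP6V0D1 below. CTSF, a cysteine protease, had 0.14 ± 0.34 with replicate 2 below 0.

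CTSK, a collagen-cutting protease of bone-resorbing cells, was the only protease with a mean below 0. Its intensity was 6556, 10848 and 6834 in FGF18-treated cells, against 10179, 13269 and 6699 in control cells, with ratios of -0.64, -0.29 and 0.03 and a mean of -0.30 ± 0.33. Replicates 1 and 2 were lower with FGF18 and replicate 3 was level. TPP1, a tripeptidyl peptidase, was read above background on only 2 arrays of either condition and is left without a fold.

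The glycosidases, which strip sugars from glycoproteins, glycolipids and glycogen, had group medians of 0.11, 0.09 and 0.12 over 6 genes. GUSB, beta-glucuronidase, had the highest ratio of them. Its intensity was 1219, 1081 and 1031 in FGF18-treated cells, against 1031, 792 and 847 in control cells, a ratio of 0.32 ± 0.11 (1.25-fold) with all 6 arrays above 0. HEXA, the alpha subunit of beta-hexosaminidase, had 0.28 ± 0.26, with 0.55 in replicate 1 and 0.04 in replicate 2. MAN2B1, the lysosomal alpha-mannosidase, had 0.09 ± 0.04. The others had mixed signs: GAA, which breaks down glycogen, had 0.05 ± 0.09, GLB1, beta-galactosidase, had -0.03 ± 0.23, and NEU1, a sialidase, had 0.08 ± 0.49 with replicate 2 alone above 0.

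The hydrolases of lipids and sulfated glycans had group medians of -0.45, 0.02 and -0.12 over 3 genes. LIPA, the acid lipase that frees cholesterol from lipoprotein esters, was the 1 hydrolase below 0 in all 3 replicates and on all 6 arrays. Its intensity was 1702, 1785 and 1801 in FGF18-treated cells, against 1887, 2798 and 2038 in control cells, so every FGF18 value lay below every control value. Its ratios were -0.15, -0.65 and -0.18, or -0.33 ± 0.28 (1.25-fold lower), and without replicate 2 the mean was -0.16. SGSH, the sulfamidase of heparan sulfate breakdown, had -0.23 ± 0.31, and its second probe gave -0.03 ± 0.11. ASAH1, acid ceramidase, had 0.005 ± 0.39, with replicate 1 at -0.45 and the others at 0.27 and 0.20.

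**Figure D2:**
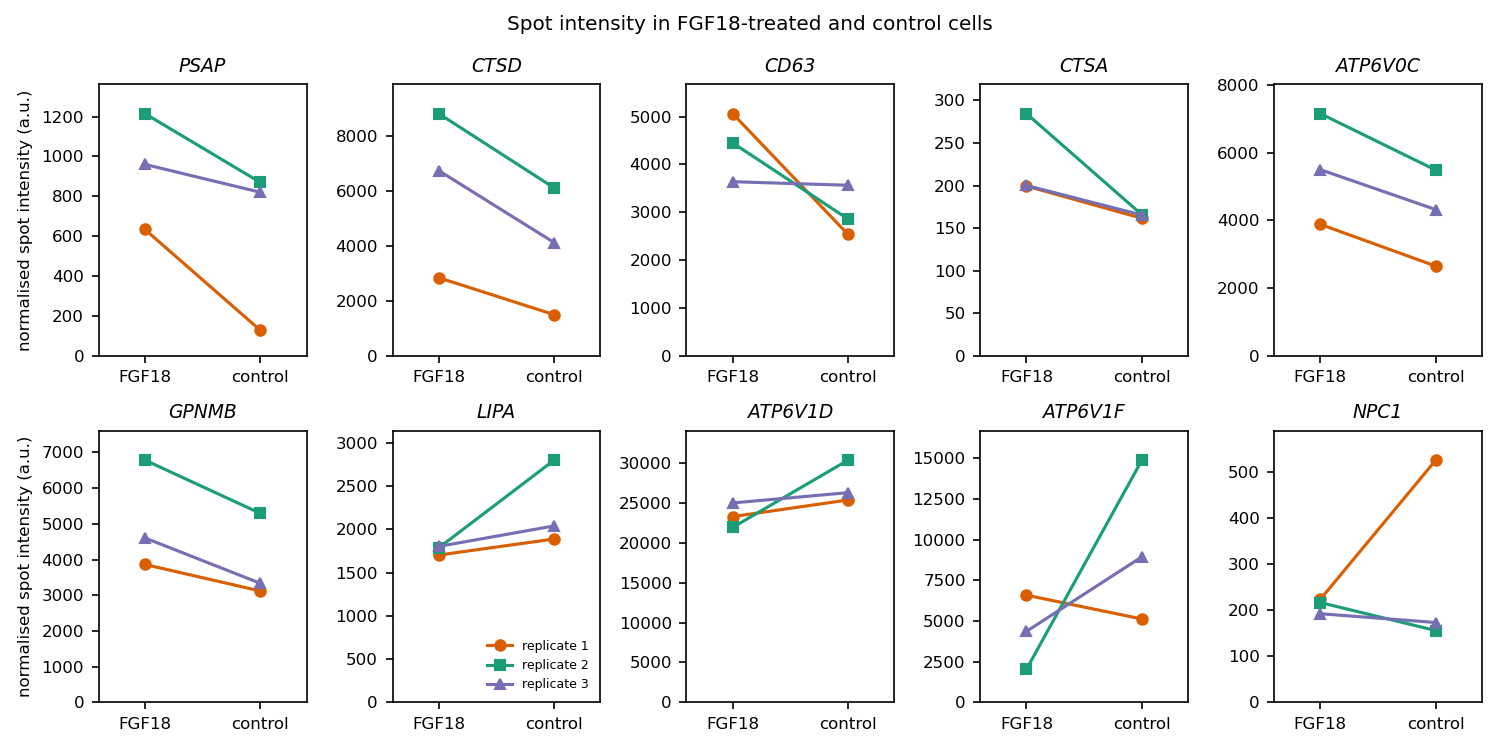
Normalised spot intensity in arbitrary units (vertical axis, from 0) in FGF18-treated and control cells for 10 lysosomal genes, with a line for each of the 3 replicates. All lines of CTSD, ATP6V0C and GPNMB slope down toward control, while PSAP in replicate 1, NPC1 in replicate 1 and ATP6V1F in replicate 2 have steeper slopes than in the other replicates.

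The soluble helper proteins of the lumen have no cutting activity of their own. PSAP, the precursor of the saposins that lift lipids from membranes for hydrolases, had the highest mean ratio of the 44 genes. Its intensity was 634, 1215 and 960.5 in FGF18-treated cells, against 128, 870.02 and 821 in control cells. The control of replicate 1 stands apart, and it gives the mean of 1.00 ± 1.13: the ratios were 2.30, 0.48 and 0.23, and both arrays of replicate 1 gave this value (2.31 and 2.30). Without replicate 1 the mean was 0.35. GRN, progranulin, had 0.05 ± 0.15, and NPC2, which hands cholesterol to NPC1, had -0.10 ± 0.52 with 0.33, -0.68 and 0.06.

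Among the membrane proteins the group median was -0.03, 0.45 and 0.15 in replicates 1, 2 and 3. GPNMB, a glycoprotein of lysosomes and melanosomes, was the steadiest. Its intensity was 3862, 6784 and 4606 in FGF18-treated cells, against 3119, 5293 and 3334 in control cells. Its ratios were 0.31, 0.36 and 0.47, or 0.38 ± 0.08 (1.30-fold), and all 6 arrays were above 0.

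CD63, a tetraspanin of late endosomes and exosomes, had an intensity of 5063, 4453 and 3640 in FGF18-treated cells, against 2537, 2859 and 3566 in control cells. Every FGF18 value lay above every control value, but the ratios were 1.00, 0.64 and 0.03, or 0.56 ± 0.49, so replicate 3 was level, and without replicate 1 the mean was 0.33. The second CD63 probe was also above 0 in all 3 replicates, at 0.24, 0.40 and 0.04, and also lowest in replicate 3. MCOLN1, a calcium channel of lysosomes, had 0.23 ± 0.24, LAMP1, the most abundant lining protein with LAMP2, had 0.21 ± 0.38, LAMP2 had 0.16 ± 0.29 and SCARB2, the carrier of beta-glucocerebrosidase, had 0.08 ± 0.32. These 4 were below 0 in replicate 1 and above 0 in replicate 2. The other SCARB2 probes gave -0.18 and -0.04, and the other LAMP1 probe gave 0.24 with replicate 1 above 0.

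NPC1, the membrane exporter of cholesterol, had among the widest spreads of the list. Its intensity was 224, 217 and 193 in FGF18-treated cells, against 527, 156 and 174 in control cells. Ratios were -1.23, 0.48 and 0.15, with a mean of -0.20 ± 0.91. As for PSAP, the control of replicate 1 stands apart, here as the high value, and without replicate 1 the mean was 0.31. PSAP, NPC1, LIPA and NPC2 all act on lysosomal lipids, and their ratios had no common order over the replicates.

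The sectors of the V-ATPase had different medians among the listed subunits. Over the 5 V0 subunits the median ratio was 0.36, 0.36 and 0.10 in replicates 1, 2 and 3, and over the 8 V1 subunits it was 0.002, -0.07 and 0.03. V0 was the higher in each replicate, by 0.28 ± 0.19. Of the 5 V0 subunits 2 were above 0 in all 3 replicates, where 12% of all genes were. The difference between the sectors was noticed in these data and was not tested. The V0 subunits outside the list did not have it: ATP6V0A2 was at 0.07, ATP6V0E2 at 0.01, TCIRG1 at -0.08, and ATP6V0A4 and ATP6V0D2, below 0 in all 3 replicates, at -0.12 and -0.17.

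In the V0 sector, ATP6V0C, the ring subunit that carries protons, had the highest ratio of the pump. Its intensity was 3884, 7155 and 5499 in FGF18-treated cells, against 2651, 5485 and 4319 in control cells. Its ratios were 0.55, 0.38 and 0.35, or 0.43 ± 0.11 (1.35-fold), with all 6 arrays above 0, but its dimmer probe gave 0.95, -0.29 and 0.01. ATP6V0B, a second ring subunit, had 0.29 ± 0.19, also above 0 on all 6 arrays. ATP6V0A1, which forms the proton path with the ring, had 0.19 ± 0.20 near background, and ATP6V0E1, a small membrane subunit, had 0.12 ± 0.44. ATP6V0D1, which joins V0 to the central stalk, had -0.01 ± 0.10 and opposite signs in the dye orientations.

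In the V1 sector, ATP6V1E1, a subunit of the outer stalks, had 0.24 ± 0.15 and was above 0 on all 6 arrays. ATP6V1D, a subunit of the central rotor, was below 0 in all 3 replicates. Its intensity was 23264, 21909 and 24973 in FGF18-treated cells, against 25347, 30341 and 26264 in control cells. Every FGF18 value lay below every control value, with a ratio of -0.22 ± 0.22. Without replicate 2 the mean was -0.10, and with all its probes averaged it was -0.055. Its next brightest probe gave -0.36, 0.28 and 0.06, and the FGF18-in-Cy5 array of replicate 1 was at 0.16. ATP6V1C1, a stalk subunit that leaves the pump when the sectors part, had -0.07 ± 0.15, and ATP6V1G1, an outer stalk subunit, had 0.01 ± 0.20.

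The catalytic head and its regulator had no common sign. ATP6V1A, the subunit that splits ATP, had 0.30 ± 0.62, with 1.02 in replicate 2 and -0.12 and 0.01 in the others, while its next probe gave 0.19, -0.68 and -0.46. ATP6V1B2, its partner in the head, had -0.06 ± 0.46 with 0.29, -0.58 and 0.11, and its next probe gave -0.28, 0.57 and 0.09. For these subunits, probes of 1 gene therefore gave opposite signs within the same replicate. ATP6V1H, which controls coupling of the sectors, had 0.07 ± 0.62.

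ATP6V1F, a small rotor subunit, had the lowest mean and the widest spread of the 44 genes. Its intensity was 6588, 2037 and 4365 in FGF18-treated cells, against 5125, 14890 and 8947 in control cells. Ratios were 0.36, -2.87 and -1.04, with a mean of -1.18 ± 1.62, and without replicate 2 the mean was -0.34. It had 1 probe, and 190 other probes of the array, which read 102 other named genes and 0 of the other 43 lysosomal genes, lay within 0.5 of these values in every replicate. Of the accessory subunits, ATP6AP1, which helps assemble the pump, had 0.06 ± 0.47 and ATP6AP2, the prorenin receptor, had 0.12 ± 0.36.

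Set against the V-ATPase, the hydrolases did not stand apart by the median ratio of each replicate. Their median ratio was 0.10, 0.10 and 0.19 in replicates 1, 2 and 3, and that of the V-ATPase was 0.25, 0.08 and 0.08. The difference was -0.15, 0.02 and 0.11, or -0.01 ± 0.13, which is smaller than its spread between replicates and changes sign between them. Without replicate 1 it was 0.06, and without replicate 3 it was -0.06. By count, 10 of 19 hydrolases and 3 of 15 V-ATPase genes were above 0 in all 3 replicates. In each class 1 gene was below 0 in all 3. Of all genes, 12% were above and 12% below. The median of the gene means was 0.14 for hydrolases and 0.07 for the V-ATPase. Whether the classes differ was not tested. Membrane and luminal helper proteins together had 0.01, 0.43 and 0.11, and 0.06 without replicate 2.

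**Figure D3:**
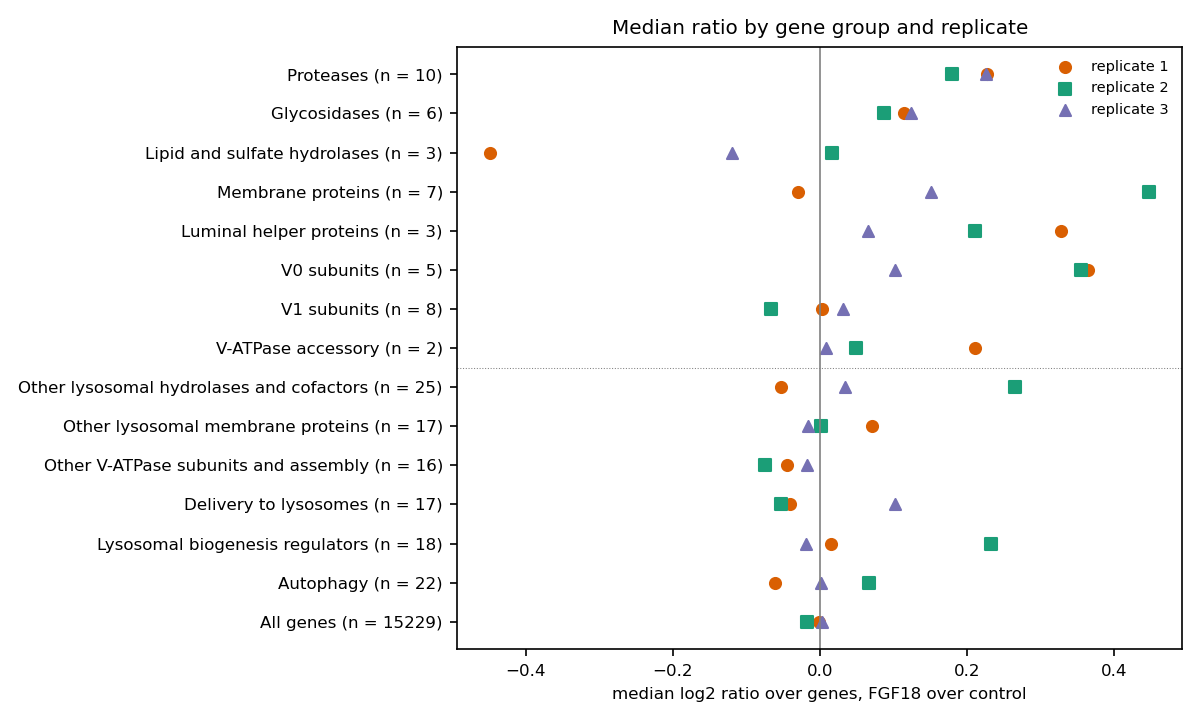
Median log2 ratio of FGF18 over control (horizontal axis) over the genes of each group, with a point for each of the 3 replicates; groups of the 44 genes are above the dotted line, and other lysosomal and autophagy lists and all genes are below it. Proteases, glycosidases, luminal helper proteins, V0 subunits and V-ATPase accessory subunits have all points right of 0, and V1 subunits lie close to 0. The medians of the lower lists lie on both sides of 0 except that of the other V-ATPase genes, which is below 0 in each replicate.

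Other genes of the same functions were read from lists of genes outside the 44. For comparison, 12% of all genes were above 0 in all 3 replicates and 12% were below. Of 25 other lysosomal hydrolases and cofactors, 2 were above 0 in all 3 replicates and 0 were below. The 2 were CTSO, which was not above background, and PLD3 at 0.25 ± 0.20. FUCA1, a fucosidase, had -0.39 ± 0.36 and ACP5, an acid phosphatase, had 0.32 ± 0.52 near background. The list had a median of 0.06 and replicate medians of -0.05, 0.27 and 0.03. Of 17 other lysosomal membrane proteins 3 were above 0 in all 3 replicates and 2 below, with a median of -0.01, and LAPTM4A, a small membrane protein of late endosomes, had 0.67 ± 0.36 (0.87, 0.89 and 0.25). MFSD8 had 0.17 ± 0.07, while LAPTM4B at -0.15 ± 0.10 and SLC29A3 at -0.10 ± 0.02 were the 2 below. OSTM1, a partner of a lysosomal chloride transporter, had 0.39, -2.81 and -1.04, values close to those of ATP6V1F. Of 16 other V-ATPase subunits and assembly factors 1 was above and 3 below, with a median of -0.004, and by unadjusted p the first were ATP6V0D2 at -0.17 ± 0.10, below 0 in all 3 replicates, ATP6V1B1 at 0.31 ± 0.29, VMA21, an assembly factor and the 1 above, at 0.38 ± 0.42, and ATP6V1E2 at -0.09 ± 0.05, also below in all 3. In limma 0 genes of these lists passed the adjusted threshold in either direction. Whether the 44 genes differ from these lists was not tested.

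Regulators of lysosome formation had no common sign, with 5 of 18 above 0 in all 3 replicates, 3 below, and a median of 0.00. Of all genes, 12% were above 0 in all 3 replicates and 12% below. TFEB had 0.20, -0.46 and -0.99, a mean of -0.41 ± 0.60, and TFE3 had -0.04 ± 0.08; MITF was not above background. FLCN, which lets mTORC1 phosphorylate TFEB, had 0.48 ± 0.28, and LAMTOR5, part of the scaffold that anchors mTORC1 on lysosomes and listed on the array as HBXIP, had 0.65 ± 0.42 (1.04, 0.70 and 0.20). PPP3CB, a subunit of the phosphatase that acts on TFEB, had 0.21 ± 0.14 near background. RRAGD, a GTPase that brings mTORC1 to lysosomes, had -0.49 ± 0.51. MTOR itself had -1.04, 0.42 and -0.18. Of 17 delivery genes 3 were above 0 in all 3 replicates and 1 below, with a median of -0.08. GGA1, a sorting adaptor, had 0.34 ± 0.12 near background, and VPS26A, a retromer subunit, had 0.56 ± 0.53. GNPTG, part of the enzyme that tags hydrolases, had 0.29 ± 0.30, also near background. The mannose 6-phosphate receptors that carry hydrolases to lysosomes, M6PR and IGF2R, had -0.68 ± 0.89 and -0.54 ± 0.88. Their lowest values came from different replicates, with -0.21, -1.70 and -0.12 for M6PR and -1.48, -0.38 and 0.25 for IGF2R. None of these passed in limma.

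Macrophages are rich in lysosomes, so their markers were read beside these genes. The summed intensity of 12 macrophage and leukocyte markers was 4970, 6426 and 4936 in FGF18-treated cells, against 3960, 8523 and 5714 in control cells, higher with FGF18 in replicate 1 and lower in the others. This sum weighs the brightest probes most. The median ratio of the 12 was above 0 in each replicate, at 0.10, 0.07 and 0.03, as was that of the lysosomal genes. Of the 12, 5 were above 0 in all 3 replicates and 1 was below, where 12% of all genes were on each side. The 5 were CD163, a macrophage scavenger receptor, at 0.55 ± 0.40 (0.22, 0.98 and 0.44), the signalling adaptors TYROBP (0.48, 0.07 and 0.15) and FCER1G (0.06, 0.05 and 0.10), and CSF1R and ITGAM, which were not above background in either condition. LAPTM5, a lysosomal protein of blood cells, was the 1 below, at -0.32, -1.16 and -0.07. The widest of the others were CD68 at 0.80, -0.68 and 0.17, and PTPRC at 0.42, -1.46 and -0.91. The summed level of granulosa markers was 34627, 50099 and 28410 in FGF18-treated cells, against 65184, 37570 and 24778 in control cells, lower with FGF18 in replicate 1 and higher in the others, with 3 of 10 above 0 in all 3 replicates and 1 below. In cultures read in bulk, fewer cells of a type and less RNA per cell cannot be told apart, and the part of these cells in the ratios above was not tested.

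Of the 44 lysosomal genes, 24 had a ratio within 0.5 of 0 in every replicate. The same count was not made over all genes, so it does not show the 44 to be steadier than others. Lysosomal genes that differed more did not all do so in the same replicates. The median SD over replicates was 0.27 for the 44 genes, above the 0.17 of all genes and the 0.22 of those above background. On both arrays of replicate 1, 3 of the 44 (CTSD, CD63 and PSAP) were at least 1.5-fold higher, where 1.94% of all genes were, and 1 (NPC1) was at least 1.5-fold lower, where 3.05% were. In replicate 2, 3 (CTSA, ATP6V1A and ATP6V1H) were higher, against 6.15% of all genes, and 2 (LIPA and ATP6V1F) lower, against 5.96%. In replicate 3, 0 were higher, against 0.25%, and 1 (ATP6V1F) was lower, against 1.62%. By the mean of the replicates, PSAP and CTSD were at least 1.5-fold higher, where 0.315% of all genes and 0.393% of those above background were, and ATP6V1F was at least 1.5-fold lower, where 1.47% and 1.83% were.

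Across the 44 genes, which share samples and so are no independent points, Pearson’s r was -0.03 between replicates 1 and 2, 0.19 between 1 and 3, and 0.60 between 2 and 3. Over 12200 genes above background these values were -0.26, -0.07 and 0.40. The arrays of 1 replicate correlated at 0.89, 0.89 and 0.62 across the 44 genes in replicates 1, 2 and 3. For the 12200 genes above background the same pairs gave 0.75, 0.83 and 0.41. In replicates 1 and 2 the arrays of a replicate were thus closer than any replicates were to each other, while in replicate 3 they were about as close as replicates 2 and 3, whose values are means of 2 arrays.

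**Figure D4:**
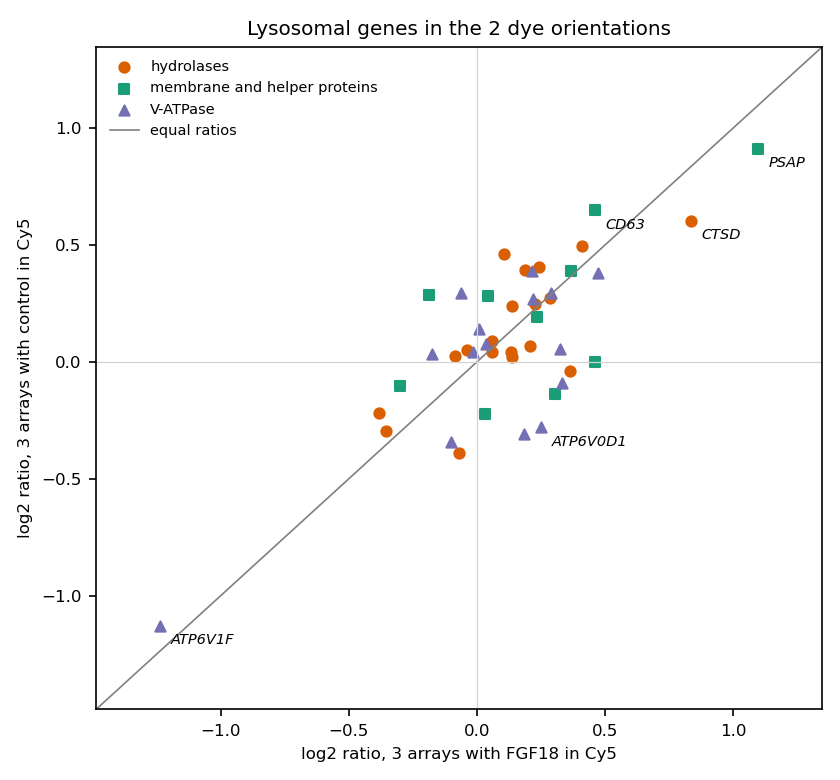
Mean log2 ratio of FGF18 over control on the 3 arrays with FGF18 in Cy5 (horizontal axis) and on the 3 arrays with the control in Cy5 (vertical axis) for 44 lysosomal genes, with a line of equal ratios. PSAP, CTSD, CD63 and ATP6V1F lie near the line far from 0, and ATP6V0D1 lies at 0.25 and -0.28.

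More than 1 probe was present for 13 of the 44 genes. Of their 21 other probes 17 were above background, 11 of those had the sign of the brightest probe, and their means ranged from -0.32 to 0.24. For CD63, LAMP1, CTSS and ATP6AP1 the other probe was above 0 in all 3 replicates, while for SCARB2, ATP6V1A and ATP6V1B2 the mean of the next probe had the other sign, and that of SCARB2 was below 0 in all 3 replicates. CTSD, PSAP, CTSA, GPNMB, GUSB, LIPA, NPC1 and ATP6V1F had 1 probe each, so no second reading of them was possible on this array.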

How the data were processed

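Granulosa cell RNA was read on 6 two-colour arrays. Per the labels' protocols it was amplified in 2 rounds and labelled with Cy3 or Cy5 by a chemical method. Deposited scanner output gives raw spot intensity and background, per the file headers, which do not name the scanner software. A value table, also deposited by the authors, has log2 ratios with no account of how they were made. It matched plain subtraction with loess (correlation 1.00 per array), as FGF18 over control, with column medians from -0.004 to 0.002.

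In R 4.3.3 with limma 3.58.1, intensities were corrected by normexp (offset 50) and normalised by loess (span 0.3, 1418 control spots at weight 0). Ratios of dim probes shrink under this offset. Arrays sharing a title number were averaged as 1 replicate. The labels do not state that they share RNA; with the orientation mean removed they correlated at 0.94, 0.95 and 0.83 over 12200 genes, values that mix in the other replicates. The deposited files number each orientation as 1 slide, so effects of slide and of dye are not separable. The 3 replicates entered lmFit and eBayes over 15229 genes with Benjamini-Hochberg adjustment. Intensities per condition come from loess and Aquantile. The fit was run on simulated data as a check of the code. The simulated shifts were larger than most ratios above, so the run does not show that differences of that size could be found.

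Genes given in full are the 6 highest and 6 lowest with 1 sign in all replicates (2 were lower) and the 3 of widest SD. Intensities of GUSB and CTSK are printed as well, outside this rule. Other lists name up to 4 genes by unadjusted p, and a few more chosen after their values were seen. The genes and lists were chosen with earlier results of these data known. Names come from the platform annotation, checked against RefSeq names of ARS-UCD2.0; the files name no build, so no coordinates are given. No sequences were used here.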

Additional observations from a re-analysis of the deposited data

Results flagged for a closer look

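ATP6V0D1, the V0 subunit that meets the central stalk, had ratios of opposite sign in the dye orientations. With FGF18 in Cy5 the ratio was 0.18, 0.23 and 0.35 in replicates 1, 2 and 3, and with the control in Cy5 it was -0.30, -0.40 and -0.14. The means were 0.25 and -0.28, a difference of 0.53, and every array of an orientation lay on the same side. In limma's test of the dye term the adjusted p was 0.0866, so the difference did not pass. By that test 0 of the 44 lysosomal genes and 66 of 15229 genes were called. The mean of ATP6V0D1 over both orientations, -0.01, rests on this cancelling. Orientation means also differed in sign for CTSB, GLB1, ASAH1, SCARB2, MCOLN1, GRN, NPC2, ATP6V0E1, ATP6V1B2, ATP6V1C1, ATP6V1G1 and ATP6AP2, though not on every array. With FGF18 and then control in Cy5, GRN had -0.19 and 0.29, ATP6V1B2 0.18 and -0.31, and SCARB2 0.30 and -0.14.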

How the results depend on the processing

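Under 19 alternatives 0 of the genes and 0 of the 44 lysosomal genes passed the adjusted threshold in limma. At an unadjusted p under 0.05, 6 lysosomal genes (6 higher, 0 lower) were found in the analysis reported, where all genes had 2.32% higher and 1.18% lower. There were 14 higher and 3 lower with 6 arrays and no replicate block (all genes 6.53% and 4.94%). That fit and the fit with a dye term took the 2 arrays of a replicate as independent, so they overstate the replication. There were 11 and 3 with 6 arrays and the replicate block by duplicateCorrelation (4.31% and 3.53%), 15 and 2 with a dye term (6.63% and 4.66%), 10 and 3 with the control-in-Cy5 arrays alone (5.62% and 5.19%), and 2 and 0 when the prior was robust and followed intensity (2.02% and 1.06%). The lowest adjusted p of a lysosomal gene was 0.102, with 6 arrays and no replicate block. Separate channels with the replicate block, and Aquantile, repeat the analysis reported by construction. With median centring the hydrolase median was 0.24 in place of 0.13 and that of membrane and helper proteins 0.33 in place of 0.19; the 3808 brightest genes then had a median of 0.11 in place of 0.01. NPC1 ranged from -0.54 to 0.31 with 1 replicate left out and was above 0, at 0.31, without replicate 1. Of the 10 genes given in full by the stated rule the other 9 kept their sign under each alternative, but several moved by over 1.5 times. ATP6V1D, at -0.22, was -0.055 with all probes averaged, -0.10 without replicate 2 or with FGF18 in Cy5 alone, and -0.34 with the control in Cy5 alone. Without replicate 2 LIPA was -0.16, CTSA 0.29 and ATP6V1F -0.34, and without replicate 1 CD63 was 0.33, PSAP 0.35 and ATP6V1F -1.95. The V-ATPase median was 0.09 with all probes averaged. The medians of hydrolases, helper and membrane proteins and V-ATPase were 0.10 to 0.15, 0.06 to 0.27 and 0.08 to 0.17 with 1 replicate left out, and the difference of hydrolases and V-ATPase was -0.06 to 0.06. Alternatives without the array with dim spike-in spots or without ATP6V1F were chosen after seeing the data, and gave differences of 0.01 and 0.005. The number of arrays and the signal over background of dim probes limit what could be detected.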

Other observations

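Autophagy genes, whose products bring cell contents to lysosomes, had a median ratio of 0.02. Of 22, 3 were above 0 in all 3 replicates and 1 below, where 12% of all genes were on each side. OPTN, an autophagy receptor, had 0.19 ± 0.05, and MAP1LC3A, a protein of the autophagosome membrane, had 0.28 ± 0.23. SQSTM1, the receptor also called p62, was the 1 below 0, at -0.16 ± 0.13. ATG16L1 had -0.35 ± 0.56. None passed in limma, where each had an adjusted p of 0.986.

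Among 4 inhibitors of cysteine proteases, CST3, the secreted cystatin C that blocks cathepsins, had 0.28 ± 0.13 with all 3 replicates above 0. The others, CST6, CSTB and CSTA, had -0.06 ± 0.26, -0.07 ± 0.11 and 0.02 ± 0.06, and 0 of 4 passed in limma. By their brightest probes, CST3, CTSD, GPNMB, GUSB and ATP6V0C each had a ratio above 0 in all 3 replicates, where 12% of all genes did. The dimmer ATP6V0C probe gave 0.95, -0.29 and 0.01. This is a description of genes picked after their values were seen.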
